A study of Mus musculus with 16 samples.

Results

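The genes described here are autosomal genes of mouse β cells, the insulin-secreting cells of the pancreatic islet, for which no RNA read was counted at either age. Members were chosen by these RNA counts: a gene was taken when every transcript had 0 counts in all 5 deposited RNA libraries and the gene had a single position, and the olfactory (Olfr) and vomeronasal (Vmn1r, Vmn2r) receptor genes were left out. The rule kept 1006 of 21505 autosomal genes with a single position. RNA came from fluorescent β cells of MIP-GFP/Bl6 mice, whose β cells make GFP from a transgene under the mouse insulin promoter, in pools of 5 to 10 animals aged 15, 16 and 17 months (3 old libraries) or 4 to 6 weeks (2 young libraries). DNA methylation by bisulfite sequencing, H3K27me3 and H3K4me1 were measured in 1 library per age from sorted β cells of C57Bl6 mice of 4 to 6 weeks and of 16 to 18 months, and H3K27ac in 1 young library. The design text gives 18 to 22 months for the old bisulfite pool, and it names 2 old H3K27me3 replicas where 1 list was analysed here. The 0 counts and the methylation levels therefore come from mice of different strain labels, each library a pool, and the ages are represented by single chromatin and bisulfite libraries.

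The 5 RNA libraries held 103062806 gene counts together, so a gene at 0 in all of them lay below 0.0291 CPM in the sum (counts scaled to a common library total; the level that 3 counts in the sum would give; this covers counting error only). Most of these counts were from old cells, and in the young libraries alone the limits were 0.47 and 0.233 CPM. The β-cell gene Ins1 was at 220277 to 283342 CPM in all 5 libraries, and the acinar, endothelial and stromal genes Cpa1, Pecam1 and Col1a2 were at 0.536 to 13.5 CPM in the old and 65.2 to 901 CPM in the young libraries. Hormone genes of other islet cells were higher. Gcg of α cells was at 682 to 1453 CPM in the old and 1766 and 32655 CPM in the young libraries. Sst of δ cells was at 44.2 to 148 CPM in the old and 1637 and 5833 CPM in the young libraries. The shallower young library (6377619 counts) decided much of the membership: 1080 further genes had counts in it alone, at a median of 7 counts, and without it the rule would take 2086 genes. The next group outside the rule, 558 genes with a single count in total, had a median body methylation of 78.4% in young and 78.3% in old cells. No source used here says how reads matching near-identical copies were counted, so the 0 of members with such copies (defensins, keratin-associated proteins, major urinary proteins, microRNA repeats) is uncertain.

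In mammalian cells most CpGs outside regulatory elements are methylated, and bodies of transcribed genes are a known target of DNA methyltransferases recruited by a histone mark that polymerase leaves behind. CpG-dense starts (CpG islands) are usually unmethylated whether or not the gene is transcribed, and at developmental regulators that a tissue does not use they are commonly covered by H3K27me3, the mark of Polycomb repressive complex 2. Genes with CpG-poor starts that serve other tissues, such as skin keratins or milk proteins, often lack this mark and carry methylated promoters. H3K4me1 marks enhancers and the edges of CpG islands, and H3K27ac marks active elements.

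The difference between these kinds of start can be seen in the sequence itself. The 250 bases before the start are shown for members of both kinds, 5′ to 3′ on the gene's strand, from RefSeq on build GRCm38.p6, with CpGs in capitals: Tlx3 (chr11:33203589-33203838, minus strand) and Uncx (chr5:139543648-139543897, plus strand), homeobox genes of neurons and of somites, against Lalba (chr15:98482684-98482933, minus strand), the milk protein α-lactalbumin, and Ifng (chr10:118440796-118441045, plus strand), interferon gamma.
Tlx3: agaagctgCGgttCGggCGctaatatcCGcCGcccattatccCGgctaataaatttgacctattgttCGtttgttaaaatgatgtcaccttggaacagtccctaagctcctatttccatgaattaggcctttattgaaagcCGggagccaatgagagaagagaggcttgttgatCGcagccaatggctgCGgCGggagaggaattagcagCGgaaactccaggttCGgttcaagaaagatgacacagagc
Uncx: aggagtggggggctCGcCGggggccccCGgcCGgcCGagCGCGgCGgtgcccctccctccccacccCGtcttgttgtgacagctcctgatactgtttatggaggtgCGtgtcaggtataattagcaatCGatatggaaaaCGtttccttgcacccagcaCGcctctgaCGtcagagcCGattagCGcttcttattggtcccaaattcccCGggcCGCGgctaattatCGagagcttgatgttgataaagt
Lalba: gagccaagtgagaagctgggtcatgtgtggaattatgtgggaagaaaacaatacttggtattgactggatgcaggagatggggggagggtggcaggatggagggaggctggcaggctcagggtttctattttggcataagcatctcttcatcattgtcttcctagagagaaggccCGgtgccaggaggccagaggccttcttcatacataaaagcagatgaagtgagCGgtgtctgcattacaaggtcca
Ifng: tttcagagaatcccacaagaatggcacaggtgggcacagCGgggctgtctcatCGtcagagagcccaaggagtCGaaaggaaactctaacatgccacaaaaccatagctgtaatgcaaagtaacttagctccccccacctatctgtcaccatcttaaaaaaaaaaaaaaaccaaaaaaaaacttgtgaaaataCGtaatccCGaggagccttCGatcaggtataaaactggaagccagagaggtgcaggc
Tlx3 holds 13 and Uncx 20 CpGs in this window, Lalba 2 and Ifng 6. In young cells the promoters of Tlx3 and Uncx (1 kb before to 500 bases after the start in the deposited build, mm9) were methylated at 9.39% (95% Wilson interval 8.72 to 10.1) and 8.41% (7.6 to 9.31), and those of Lalba and Ifng at 84.2% (79.8 to 87.9) and 86.6% (83.3 to 89.4). In old cells the levels were 12% and 8.51% against 84.4% and 91.3%, so neither pair came near the other at either age. Both homeobox promoters lay in H3K27me3 regions at both ages, as did that of Lalba, while Ifng had no H3K27me3 at either age.

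A RefSeq promoter was found for 536 members, and 510 of these had a single listed start. Their window of 250 bases held a median of 3 CpGs, against 5 over 21717 autosomal genes with 1 listed start. The letters TATAAA, on either strand, stood in 24.7% of the 510 windows against 13.6% of all, and the GC-box letters GGGCGG in 19.6% against 32.8%. Members with CpG-poor starts and those with CpG-rich starts differed in both: TATAAA was in 30.5% of 351 and 10.8% of 83 windows, and GGGCGG in 7.12% and 66.3%. The letters GGGCGG hold a CpG themselves and TATAAA holds none, so this contrast follows in part from how the classes were defined. The CCAAT letters were in 37.8% of members' windows and 34.6% of all. Each motif was counted on both strands.

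Silent genes were short and CpG-poor. Their median length was 2529 bases against 15075 over all autosomal genes, and 201 of them were genes for small RNAs (195 of microRNAs). Around the start, 160 members (15.9%) were CpG-rich (at least 40 CpGs per kb), 150 in between and 696 (69.2%) CpG-poor (under 20), where 53.6% of all genes were CpG-rich and 32.9% CpG-poor. Methylation of the body (from 1 kb past the start to the end) could be measured in 582 members with at least 5 covered CpGs, and that of the promoter in 805. A further 320 members were too short to have a body by this definition, 104 had too few CpGs in it, and 97 had neither region measured. Another gene contained 136 members, 105 of them small RNA genes, and 86 lay inside a gene at 1 CPM or more, so that the methylation measured there is also that of the host.

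Bodies of silent genes were methylated at a median of 77.2% in young and 75.6% in old cells (interquartile range in young 65.5 to 83.0%). Bodies of genes with 1 to 10 counts in total had 78.1%, and those of the bottom, middle and top of 3 equal classes of the remaining genes by mean CPM 79.5, 83.8 and 82.9% in young cells. At the low end, 84 of 582 silent bodies (14.4%) were below 30% methylated, against 3.90% of all bodies, and at the high end 230 (39.5%) were at 80% or more, against 57.0% of all. Measured against DNA without genes 5 to 15 kb away on both sides, silent bodies lay at a median of -0.52 percentage points in young cells, with 275 of 567 above their flank. Bodies of genes with 1 to 10 counts lay at 0.53 points and those of the bottom class at 2.36, so a level near the flank was not particular to genes without reads. The middle class lay 7.27 and the top class 6.16 points above their flanks, and all genes 4.51. The direction for silent bodies was not stable: with the 63 developmental transcription factor genes left out it was 0.80 points, with CpGs of at least 10 reads only 0.42, and without the shallower young library or old library 2 in the rule it was 0.40 and 0.05 points.

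**Figure D1:**
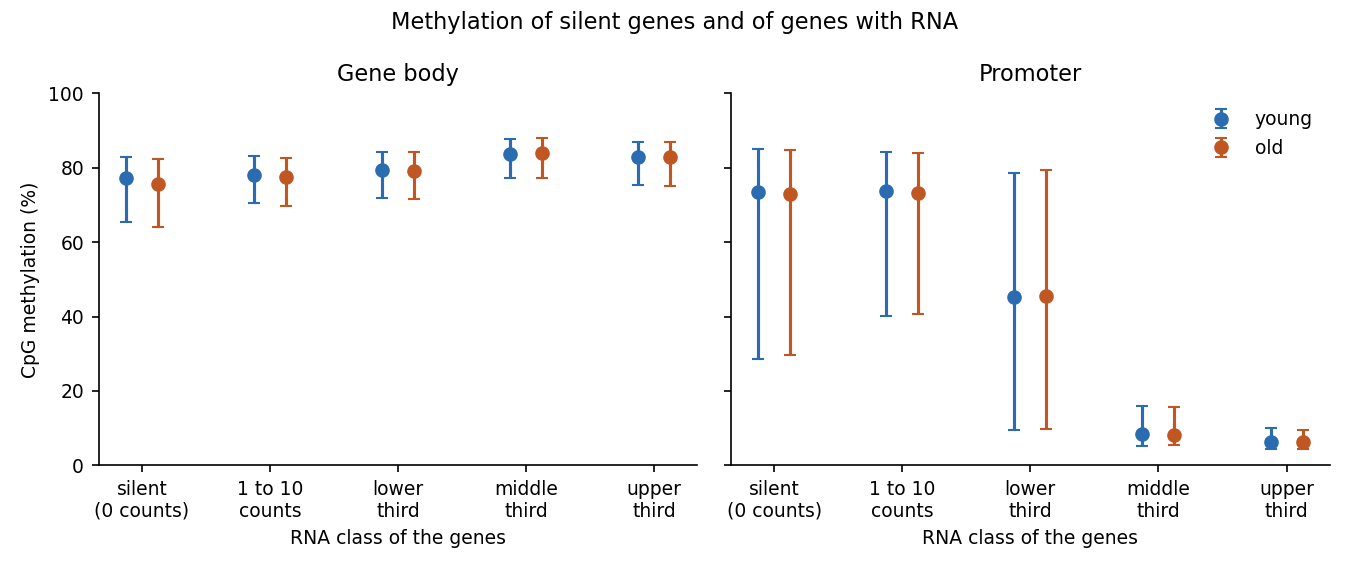
Median CpG methylation (%, points) with the interquartile range over genes (bars) of gene bodies (left) and promoters (right) by RNA class, 1 bisulfite library per age. Silent bodies (77.2% in young) lie nearest to genes with 1 to 10 counts (78.1%) and below the middle RNA class (83.8%), and silent promoters (73.5%) lie far above those of the top class (6.4%).

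The values by gene length were as follows. Among members over 20 kb the body lay at a median of -1.98 points against the flank (n = 89), those of genes with 1 to 10 counts at -0.52 (n = 424) and those of the top class at 5.00 points (n = 3553). Between 5 and 20 kb the values were 0.05 (n = 227) and 10.7 points (n = 1509), and up to 5 kb -0.32 (n = 251) and 6.42 points (n = 379). Without H3K27me3 at the promoter, silent bodies up to 5 kb lay 6.09 points above the flank (n = 47), those of 5 to 20 kb -0.92 (n = 75) and those over 20 kb -1.38 (n = 37). Bodies of the top class without the mark lay at 3.84 (n = 225), 8.96 (n = 1044) and 5.06 points (n = 2864) in these lengths, so that among the shortest the silent genes had the higher value. Across members, body and flank levels in young cells had a Spearman's rho of 0.34 (n = 567 genes; 0.09 over 17622 genes of all kinds), a description across genes that share 1 library and the base composition of their region.

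Promoters divided the silent genes more sharply than bodies. The median was 73.5% in young and 72.9% in old cells, against 10.6 and 10.3% over all genes, with 175 members under 20% and 520 over 60% of the 805 measured. CpG density went with this split: CpG-rich members had a median of 8.27%, the middle class 61.9% and CpG-poor members 79.4%, and across members the rho of CpG density and promoter methylation was -0.55 (n = 805 genes, same library). Promoters of all genes were at 6.61% with CpG-rich starts, 25.5% in the middle class and 77.1% with CpG-poor starts. The CpG-poor members thus lay close to all CpG-poor genes, and the gap was widest in the middle class. Bodies behind CpG-rich starts of silent genes had a median of 25.9% in young and 25% in old cells, against 82.8 and 82.9% for bodies behind CpG-rich starts of all genes, while CpG-poor members had 79.0% against 79.5%. The CpG-rich silent genes had a median length of 2710.5 bases against 22697 for all CpG-rich genes, so their bodies lay nearer to the start. Genes of the top class by CPM were themselves at 25.6% between 1 and 1.5 kb past the start in young cells. The part of length in this gap was not tested.

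**Figure D2:**
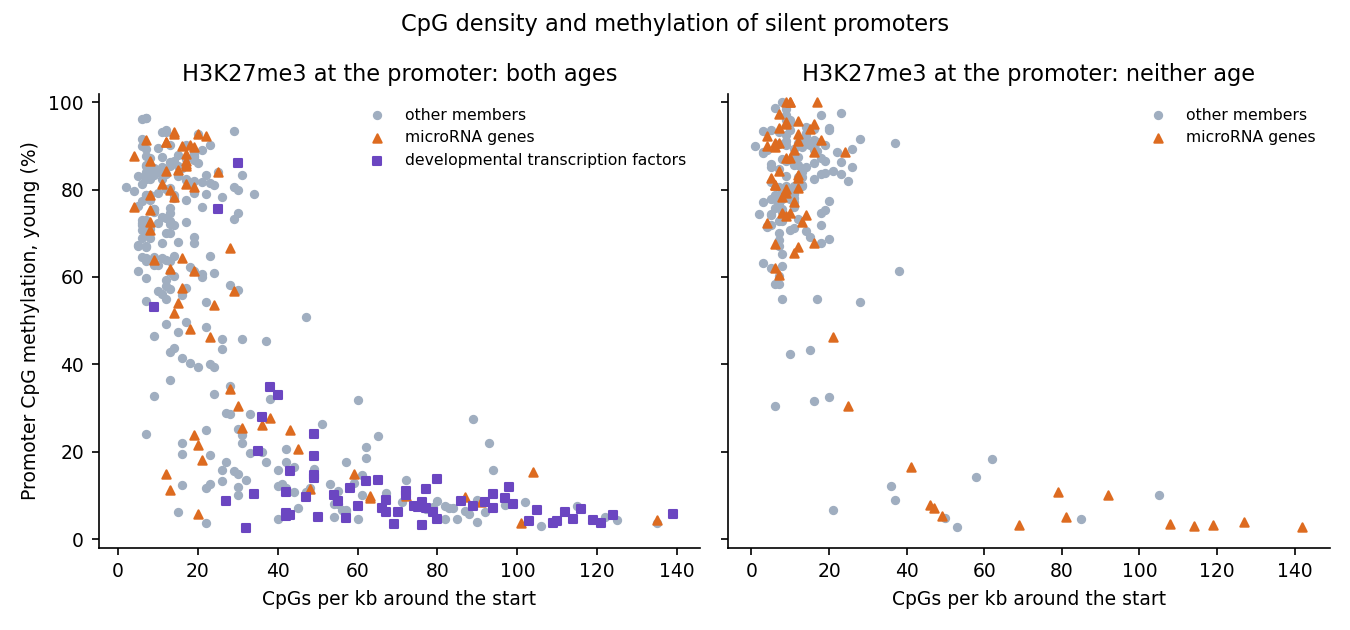
Promoter methylation in young cells (%) against CpGs per kb around the start, 1 point per member, for members with H3K27me3 at the promoter in both ages (left) and in neither (right). Developmental transcription factors (squares) lie mostly at high density and low methylation in the left panel and are absent from the right one, where CpG-dense members are mostly microRNA genes (triangles).

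H3K27me3 covered part of the promoter in 474 members in young cells (47.1%) and in 583 in old cells (58.0%). The background was 28% of 21505 promoters in young and 39.7% in old cells, the old list covering 590 Mb of the autosomes against 434 Mb for the young one. The share was not particular to genes without reads, since genes of the bottom class by CPM had 43.8 and 56.4%, while the top class had 9.18 and 20.6%. At least 50% of the body was covered in 328 members in young (47.8%, background 18.9%) and 397 in old cells (57.9%, background 35.2%). Genes with 1 to 10 counts had 40.8 and 50.3%, and the bottom class 35.3 and 52.3%. At least 1 base was covered in 55.8 and 65.9% of silent bodies against 57.0 and 70.8% in the bottom class. Silent genes had a median length of 2529 bases, and the H3K27me3 regions one of 9000. The part of length in these shares was not tested. Both ages together gave 404 members with the mark at both ages, 70 in young only, 179 in old only and 353 in neither. These were 40.2, 6.96, 17.8 and 35.1% of members. Over all autosomal genes the shares were 23.1, 4.92, 16.6 and 55.4%, so the share in old only was near the background. With 1 list per age and lists of different extent, a member in 1 list only cannot be told apart from a difference between the libraries.

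Members with H3K27me3 at both ages had a median body methylation of 69.8% in young and 70.2% in old cells, and members without it 80.8 and 81.2%. Without the developmental transcription factors the marked members had 74.2 and 73.6%. Over all genes the medians were 77.1 and 76.6% with the mark at both ages and 83.7% at both ages without it, so the direction was not particular to silent genes. CpG-rich members with the mark at both ages, 127 genes, had bodies at 21.9 and 20.5% and promoters at 8.47 and 8.93%. CpG-poor members with the mark at both ages, 195 genes, had bodies at 76.1 and 74.7%. The marked state therefore held both unmethylated and methylated genes, divided by CpG density. In calls pooled around the start, with small RNA genes left out, 337 members were marked at both ages and 277 at neither, and fewer genes reached the bins farther in (125 and 115 at 5 kb). Marked members were at 16.5% in the first 500 bases in young cells, at 22.6% between 1 and 1.5 kb and at 52.8% at 5 to 5.5 kb, and 45.7% at 10 to 9.5 kb before the start. Members without the mark were at 62.9, 81.0, 82.5 and 80.3% at the same places. In the top class by CPM the low stretch was narrower, with 5.21% in the first 500 bases, 25.6% from 1 kb and 74.8% at 5 kb.

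**Figure D3:**
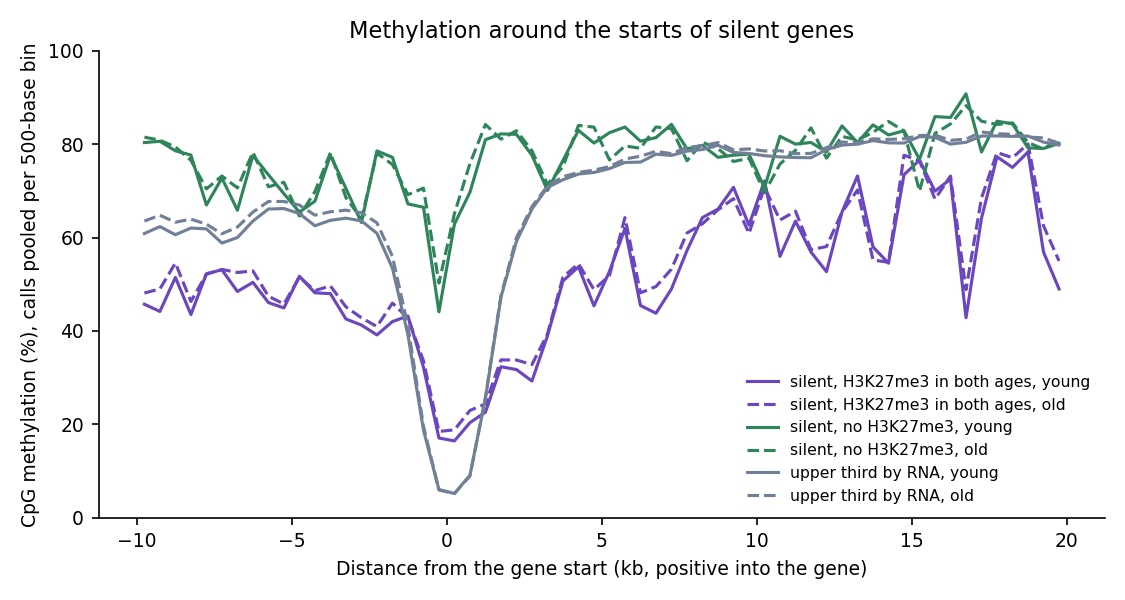
CpG methylation (%, calls pooled over genes in bins of 500 bases) by distance from the gene start (kb), in young (solid) and old (dashed) cells. Genes with many CpGs weigh more in these curves, which are not the level of a typical gene. The curve of silent genes with H3K27me3 in both ages stays low over a wide stretch. That of silent genes without it is lowest in the 500 bases before the start (44.1%, young) and uneven upstream, and the top RNA class is back at 74.8% by 5 kb.

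The 63 developmental transcription factors all had H3K27me3 at the promoter at both ages. Of these, 54 had CpG-rich starts, and the median share of the body under the mark was 100% at both ages. Their 60 measured bodies were at a median of 13.0% in young and 12.6% in old cells, and their promoters at 8.40 and 9.29%. Of the bodies, 50 were below 30%, and of the promoters 55 below 20%. They made up 50 of the 84 members with bodies under 30%, and 32 of the other 34 also had H3K27me3 at both ages. Uncx on chromosome 5 (140019852 to 140024132, mm9) had the lowest body among members with at least 50 CpGs, at 5.28% (95% Wilson interval 4.8 to 5.8) in young and 7.01% (6.42 to 7.65) in old cells. Prdm13, a factor of spinal interneurons, had 5.36 and 8.08%, Zic5, a zinc finger factor of the neural tube, 6.9 and 7.9%, and Pou3f3, a POU factor of the brain, 7.2 and 8.8%. Ccno, a cyclin of multiciliated cells outside this family, had 6.9 and 8.7%. At Tlx3 the body was at 9.11 and 9.08%, equal within the intervals of both ages.

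Silent members of the Hox clusters, which set position along the body axis, had low levels. In the Hoxa cluster on chromosome 6 (52151123 to 52268372), 8 members from 2700086A05Rik to Evx1, with 6 measured bodies, had body medians of 11.9% in young and 12% in old cells. In the Hoxc cluster on chromosome 15 (102751562 to 102845432), 7 members with 5 measured bodies had 13.9 and 11.1%, with all of them under H3K27me3 at both ages. Hoxd1 was an exception with a body at 58.1% in young and 53.9% in old cells behind a promoter at 7.01 and 8.19%. Bodies of Tbx4, a limb factor, and Lhx4, a pituitary factor, were also intermediate at 58.5 and 43.0% in young cells.

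A few members of this family had methylated promoters in H3K27me3 regions. Myog, the myogenin gene of muscle differentiation, had a promoter at 86.2% (83.3 to 88.7) in young and 89.9% (87.5 to 91.8) in old cells and a body at 68.7 and 77.3%. The Myog body was outside the H3K27me3 regions in young cells (0% covered) and wholly inside in old cells. Foxi1 had 75.6 and 73.1% at the promoter and Neurod6 53.2 and 51.0%, with 25 and 9 CpGs per kb at their starts and 30 at that of Myog. Myod1, the muscle factor that acts before Myog, lay at 15.5 and 16.8% at the promoter and 21.8 and 15.9% in the body. The muscle factors thus differed in methylation with H3K27me3 at both promoters. Pou5f1, the pluripotency factor Oct4, had a promoter at 79.9% in young and 78.7% in old cells and a body at 60.7 and 59.8%, also under H3K27me3. Zfp42, another gene of pluripotent cells, had 54.2 and 57.5% at the promoter and 85.5 and 83.8% in the body without the mark at the promoter.

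Families of other tissues lay at the methylated end. Keratins and cornified envelope proteins of skin and hair (51 members, none CpG-rich) had 36 measured promoters at a median of 83.8% in young and 82.8% in old cells and 9 measured bodies at 83.7 and 80.3%. A cluster of 18 members on chromosome 3 from Sprr2f to Crct1 (92169109 to 92819608), 15 of them of this family, had H3K27me3 at 8 promoters in young and 14 in old cells. Flg2, a filaggrin family gene of the skin barrier, had the highest body among members with at least 50 CpGs other than those with clone names, at 90.3% (89.4 to 91.1) at both ages. Sperm and testis genes (9 of 11 promoters measured) had promoters at 81.9 and 83.9%, and the protamine genes Prm1 and Prm2, which pack sperm DNA, had 61.0 and 81.4% in young and 54.2 and 83.9% in old cells. Defensins (14 of 25 promoters measured) had promoters at 80.2 and 82.5%, and taste and trace amine receptors (11 of 30 measured) 83.2 and 81.4%. Cytokines, chemokines and interferons (13 of 18 measured) had 64.7 and 64.1%, with H3K27me3 at 12 of all 18 in young and 10 in old cells. Family medians of bodies in young cells, for families other than developmental factors with at least 5 measured bodies, ran from 67.7% (neuronal receptors and ion channels) to 83.7% (keratins).

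**Figure D4:**
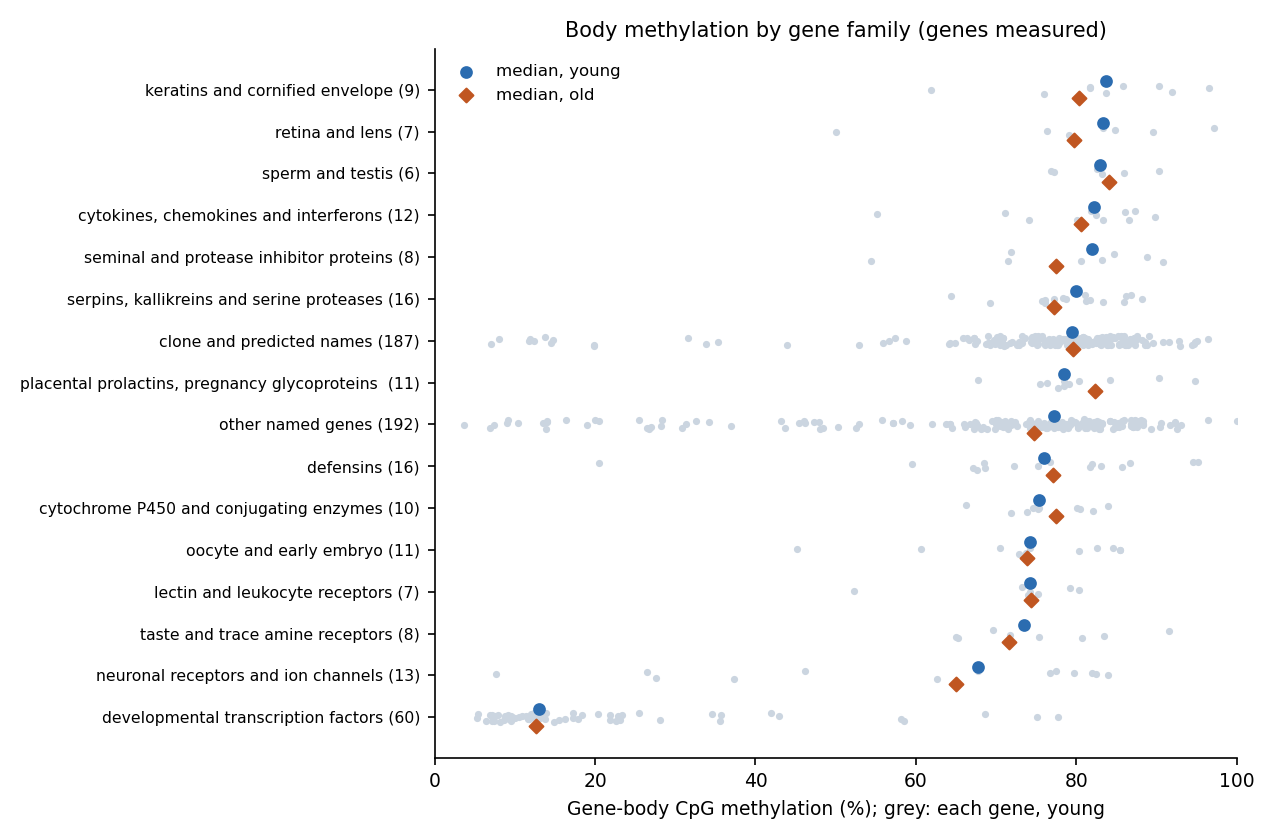
Gene-body methylation (%) of silent genes by family, with the number of measured bodies in parentheses: grey points are single genes in young cells, circles and diamonds the family medians in young and old cells. Developmental transcription factors sit at 13.0 and 12.6%, and each other family shown has a median above 60% at both ages.

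Neuronal receptors and ion channels stood between these groups. Their 15 promoters had medians of 16.1% in young and 11.5% in old cells, and their 13 measured bodies 67.7 and 65.0%, ranging from 7.70% in young cells at Adra2c, an adrenergic receptor gene, to 83.9% at Gpr152, an orphan receptor gene. Of the 15, 11 had H3K27me3 at both ages. Htr1f, a serotonin receptor gene, had a promoter at 16.1 and 8.8% and a body at 82.0% at both ages, with 16 and 15% of the body under the mark.

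A low promoter with a high body was found in 21 members (promoter under 20% and body at 80% or more in young cells), 14 of them with H3K27me3 at both ages. This state was not particular to silent genes. Over all genes with CpG-rich starts, 96.8% of measured promoters were under 20% and 62.2% of measured bodies at 80% or more in young cells. Snai3, a zinc finger factor of the Snail family, had 6.6% (5.78 to 7.53) at the promoter and 88.0% (86.7 to 89.3) in the body in young cells, and 9.96 and 85.7% in old cells. Sstr5, a somatostatin receptor gene, had 11.8% (10.4 to 13.4) and 88.3% in young and 24.7% (22.5 to 27) and 89.3% in old cells. Methylated CpG-rich starts were few: 3 of 160 CpG-rich members were over 60% in young cells, Dpep3 (a membrane dipeptidase gene of the testis, 88.9 and 89.0%), Znrf4 (75.8 and 81.9%) and Mir3968 (85.3 and 86.6%). None of these 3 had H3K27me3 in young cells, and all had it in old cells. The sets in this paragraph were chosen after their values were seen.

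H3K4me1 peaks, which have a fixed width of under 130 bases in these lists, touched 145 silent promoters in young (14.4%, background 38.8%) and 76 in old cells (7.55%, background 23.1%). At both ages 66 members had one, in young cells only 79, and in old cells only 10. Among CpG-rich starts the shares were 59.4% in young and 37.5% in old cells for silent genes. For all genes with such starts they were 57.3 and 35.2%, so the lower share over all members was not seen there. In the middle class the shares were 20% in young and 8.67% in old cells for silent genes against 41.95 and 22.3% for all genes. With CpG-poor starts they were 2.87 and 0.431% against 7.29 and 3.53%. The lower share of silent genes was thus seen in the middle and CpG-poor classes. The young list had 77291 peaks and the old one 36207, so lower shares in old cells were seen in all genes as well. H3K4me1 touched 14.1% of the 686 silent bodies over the offset in young and 6.85% in old cells, against 51.2 and 38.0% of all. For genes with 1 to 10 counts the shares were 19.2 and 9.66%. A longer gene offers more bases to such peaks, and silent genes had a median of 2529 bases against 15075 for all. The part of length in this gap was not tested. Coverage of 50% of a body by such narrow peaks was near impossible (0 silent bodies for H3K4me1 at both ages and for the wider H3K27ac peaks, background 0.0308%, 0.00514% and 0.621%). CpG-rich members held 95 of the 145 in young and 60 of the 76 in old cells. H3K4me1 and H3K27me3 stood together at 109 promoters in young and 59 in old cells. The combination was not particular to silent genes. Of members with H3K27me3 at both ages, 25.5% had H3K4me1 in young and 12.6% in old cells. Over all genes in this state the shares were higher, at 43.5 and 24.02%. CpG-rich starts made up 31.4% of these members and 45.9% of these genes, and the part of CpG density was not tested. Among developmental transcription factors H3K4me1 was at 24 of 63 in young and 12 of 63 in old cells.

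H3K27ac, measured in young cells only, was at 22 silent promoters (2.19%, background 34.6%). Of these, 17 were microRNA genes and 2 small nucleolar RNA genes, and 20 had promoter methylation under 20%. Among CpG-rich members without H3K27me3 at either age, 19 in all, 13 were microRNA genes. Of the 22, 6 lay inside a gene at 1 CPM or more, such as Mir1907 in Trps1 (43.3 CPM). The RNA libraries counted reads over the hairpin interval, and mature microRNAs were not measured, so a count of 0 for these genes says nothing about the mature form.

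MicroRNA clusters showed the range of states, and mature sequences are given for clusters with low and with high methylation, 5′ to 3′, with the seed (bases 2 to 8) in capitals, from RefSeq on GRCm38.p6 (145 of the 195 microRNA members were matched). The first group is the cluster Mir290 to Mir295, known from embryonic stem cells, the next the cluster of Mir18 to Mir92-1, known from proliferating cells, and the last the neighbours Mir132 and Mir212, known from neurons.
miR-291a-3p: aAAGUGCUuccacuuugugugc
miR-294-3p: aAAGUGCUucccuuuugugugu
miR-295-3p: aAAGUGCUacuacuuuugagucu
miR-291b-3p: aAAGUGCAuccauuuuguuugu
miR-18a-5p: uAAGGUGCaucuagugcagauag
miR-20a-5p: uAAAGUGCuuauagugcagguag
miR-19a-3p: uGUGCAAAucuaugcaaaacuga
miR-19b-3p: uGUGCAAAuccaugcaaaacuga
miR-92a-3p: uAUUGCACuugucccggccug
miR-132-3p: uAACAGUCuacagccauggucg
miR-212-3p: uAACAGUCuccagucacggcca
The arms miR-291a-3p, miR-294-3p and miR-295-3p share the seed AAGUGCU and miR-291b-3p has AAGUGCA, miR-19a-3p and miR-19b-3p share GUGCAAA, and miR-132-3p and miR-212-3p share AACAGUC. The stretch from Mir290 to Mir295 on chromosome 7 (3218127 to 3221342, which includes 500 bases on each side) was methylated at 31.3% (95% Wilson interval 29.6 to 33.2, 68 CpGs) in young and 35.0% (33.0 to 36.9) in old cells, and all 6 promoter windows were in H3K27me3 at both ages. Within it the windows of Mir290 and Mir291a were at 26 and 27.7% in young cells and those of Mir294 and Mir295 at 75.4 and 86.6%. The stretch from Mir18 to Mir92-1 on chromosome 14 (115442573 to 115444228, with the same margin) was at 92.8% (90.4 to 94.7, 24 CpGs) in young and 87.2% (84.3 to 89.7) in old cells, with H3K27me3 at both ages. The windows of Mir132 and Mir212 on chromosome 11 lay at 10.7 and 10.2% in young and 4.3 and 3.9% in old cells, with H3K27ac and no H3K27me3. Windows of neighbouring hairpins overlap, so these are not independent measurements.

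Inside Sfmbt2, a Polycomb-related gene on chromosome 2, lay 16 microRNA members (10389122 to 10437548). H3K27me3 was at 2 of their windows in young and 0 in old cells. The 11 measured windows had a median of 92.7% in young and 82.4% in old cells, and the whole stretch with 500 bases on each side and 125 CpGs 87.7% (86.0 to 89.3) and 82.7% (80.9 to 84.4). Sfmbt2 was at 10.2 and 5.97 CPM in the young and 0.225, 0.0298 and 0.467 CPM in the old RNA libraries. Several of these hairpins are repeats of one another, and markers of other pancreatic cells were higher in the young RNA libraries too; their part in the difference was not tested.

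Between the ages, methylation of silent genes differed little in the middle of the distribution. The median difference, old minus young, was -0.28 percentage points for bodies and 0.20 for promoters, although the promoter median fell from 73.5 to 72.9%. Fisher's exact test on the calls of each region (two-sided, Benjamini-Hochberg adjusted over all genes measured, with at least 10 points of difference) called 17 silent bodies higher and 28 lower in old cells, 7.73% of 582 against a background of 1.41% higher and 1.49% lower (2.9% together) of 18803 bodies. It called 52 silent promoters higher and 60 lower, 13.9% of 805 against 3.71% and 4.51% (8.22% together) of 19719. The test compares 1 library with another and treats neighbouring CpGs of a read as independent, so its p-values are too small, and they do not speak of animals. Silent bodies held few CpGs, a median of 45 against 160, and at equal numbers of CpGs the shares were close to those of all genes: 25.4% against 24.1% with 5 to 9 CpGs, 16.9% against 18.3% with 10 to 19, 7.05% against 6.88% with 20 to 49, 2.52% against 2.14% with 50 to 99, and 0 of 155 against 0.429% with 100 or more. For promoters the pairs were 22.8% and 25.5%, 18.7% and 20.5%, 9.92% and 9.11%, 2.65% and 1.55%, and 0 of 33 against 0.190% in the same classes.

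**Figure D5:**
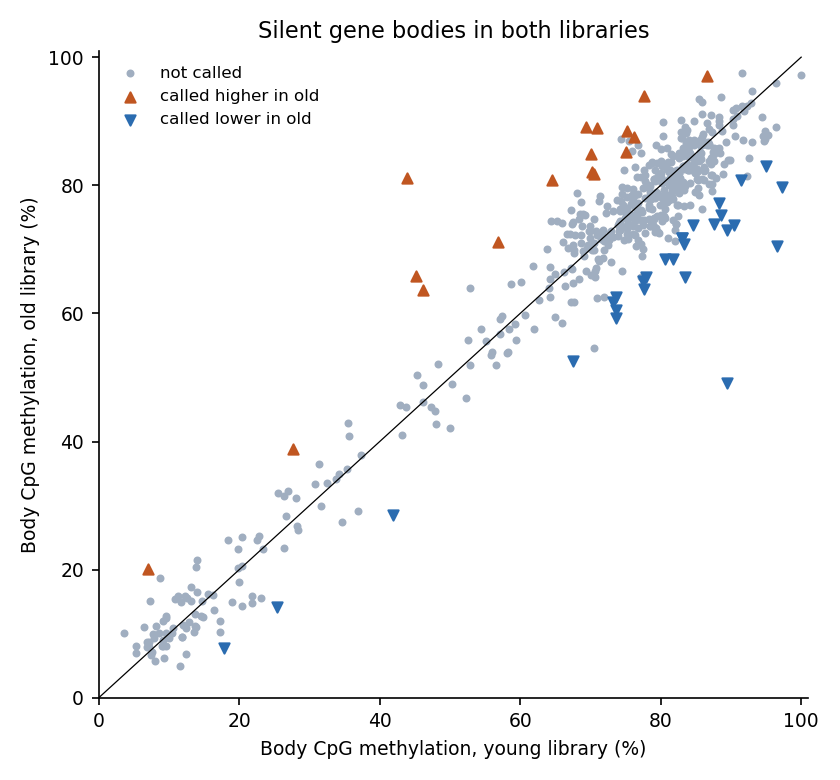
Body methylation (%) of the 582 measured silent genes in the old against the young library, with called bodies as triangles and the line of equality. Called bodies lie on both sides of the line (17 above, 28 below), and 31 of the 45 rest on fewer than 20 CpGs.

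Of the 45 called bodies, 14 had at least 20 CpGs, 5 of them higher and 9 lower in old cells. Kcnk15, a potassium channel gene on chromosome 2 (163679486 to 163684610), rose from 27.6% (26.3 to 29) to 38.8% (37.2 to 40.4) over 92 CpGs (Fisher's exact test, adjusted p = 3.4e-24). Csn1s2a, a casein gene of milk on chromosome 5, rose from 56.9% (51.9 to 61.7) to 71.2% (65.8 to 76) over 25 CpGs (exact test, adjusted p = 0.0005). Neurod6, a neuronal factor, rose from 75.1 to 85.2% over 21 CpGs. Hoxc13 on chromosome 15 (102751562 to 102759245), a Hox gene of hair and nails, fell from 17.8% (16.2 to 19.6) to 7.76% (6.59 to 9.12) over 79 CpGs (exact test, adjusted p = 3.5e-18). Igfl3, of a growth factor-like family, fell from 77.6 to 63.9%, Obox1, an oocyte homeobox gene, from 73.7 to 62.5%, and Prss28, a serine protease gene of the uterus, from 88.2 to 77.3%, each over 20 to 25 CpGs. The other 7 carried clone or predicted names. Kcnk15 and Hoxc13 lay wholly under H3K27me3 at both ages.

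Among called promoters with at least 10 CpGs and no clone name, Hrh4, the histamine H4 receptor gene, rose from 46.4% (40.6 to 52.4) to 68.6% (63.2 to 73.4), Iqcf1 from 64.3 to 86.3%, Ip6k3, an inositol phosphate kinase gene, from 68.4 to 87.6%, Mt4, a metallothionein gene of squamous epithelia, from 56.8 to 74.2%, and Aldh3b2, an aldehyde dehydrogenase gene, from 63.4 to 80.6%. The largest losses among them were at Mir181a-1, from 100% to 79.2%, Zdhhc19, from 78.9 to 58.2%, Il3, a blood cell growth factor gene, from 76.7 to 57.7%, Mir759, from 48.0 to 29.4%, and Serpina1c, from 79.1 to 61.9%. These promoters held 11 to 17 CpGs. Where both regions were measured, 8 of 34 members with a called body also had a called promoter, and 4 of the 8 moved in the same direction. Called promoters were 13.9% of all measured silent promoters and 8.22% of those of all genes. Among developmental transcription factors no promoter was called higher and 2 were called lower (3.17%, background 8.22%). In their bodies 1 was called higher and 3 lower (6.67%, background 2.9%). At any size of difference, 32 of these 60 bodies were higher in old cells and 28 lower. With at least 20 CpGs, members with H3K27me3 at both ages had a median body difference of -0.31 points (n = 241) and members without it -0.23 (n = 99), against 0.15 and 0.07 over all genes in these states.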

How the data were processed

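The members and gene families were chosen with earlier results of these data known. RNA counts per transcript were used as deposited by the authors. A second table of the authors, titled FPKM and treated as a signal of unknown scale, gave the gene positions (build mm9, per the submitters' processing notes, which also name Bowtie 0.12.7, STAR and HOMER). Its names of 25 genes did not match, and no member had a value above 0 in it. Its 17-month and shallower young columns are the same in 100% of entries, so it is no independent check of the 0 counts. The deposited CpG tables give the methylated fraction and the read coverage as counts, from which calls were recovered. Only CpGs with 5 to 100 reads in both libraries and regions with at least 5 such CpGs were used. Median coverage was 16 reads in the young and 18 in the old library, and overall methylation 75.6 and 72.6%. H3K4me1 and H3K27ac peaks, with their deposited score, were called by HOMER on 1 library per the file headers. No source used here names the H3K27me3 caller. Those deposited lists hold a score and a p-value for each region, and only the score was used, for 1 alternative. A promoter was called marked when at least 1 base overlapped. A flank left out every gene interval. The calls were tested with Fisher's exact test (scipy 1.17.1, two-sided) at an adjusted p under 0.05, and the procedure was checked on simulated data. The simulated calls were drawn independently, so the check does not cover linked CpGs of a read or differences between libraries. Families were assigned by symbol.

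Named genes were the 8 largest called gains and losses of bodies with at least 20 CpGs and no clone name, the 5 largest of promoters with at least 10, the 5 lowest and highest bodies with at least 50, the 6 with the longest H3K27me3 at the promoter, up to 3 per family, and a list of well-known genes of other tissues. Other genes named were chosen after their values were seen.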

Additional observations from a re-analysis of the deposited data

How the results depend on the processing

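Of 176 values recomputed under other settings, 138 stayed in range, 32 moved and 6 turned sign. No paired analysis was possible because the young RNA columns carry no replicate number and each bisulfite and histone library stands alone. Calls depended on the number of CpGs: at least 10 per region left 29 bodies and 73 promoters, at least 20 left 14 and 27 (a setting added after seeing the data). A difference of 5 points gave 126 and 228 calls and one of 20 points 4 and 18. The median age difference of bodies was -0.89 points with the mean of CpG fractions and 0.0179 over the whole gene interval, and that of promoters -0.0344 with the mean of CpG fractions. The whole interval also gave a young body median of 75.3% and -2.30 points for body minus flank, a difference of -0.52 that became 0.42 with CpGs of at least 10 reads. The promoter median in young cells was 70.0% with at least 10 CpGs and 29.0% from 250 bases before to 50 after the start, a window in which 379 members kept 5 CpGs. Peaks above the median score gave H3K27me3 at 38.7% of promoters in young and 48.8% in old cells, H3K4me1 at 8.45 and 4.57%, and bodies covered to 50% at 39.4 and 49.9%. Bodies touched by 1 base were 55.8 and 65.9%. No H3K4me1 peak can cover 50% of a promoter (0%). Without developmental transcription factors (added after seeing the data), body medians were 78.4 and 77.2%, the flank difference 0.80 points, promoters 75.8% and young H3K27me3 43.6%. Leaving out 1 RNA library gave 1093 to 2086 members, 47 to 105 called bodies, 122 to 248 called promoters, body medians of 77.1 to 78.3% in young and 75.9 to 77.5% in old cells, body minus flank of -0.84 to 0.40 points, and promoter medians of 72.4 to 74.4%. The upper ends of the counts came without the shallower young library.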
